A study of Mus musculus with 7 samples.

Results

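The genes described here belong to the vasopressin, endothelin and angiotensin systems, the hormone systems that make small arteries contract. The set named 10 genes: Avpr1a, Ednra, Ednrb, Edn1, Ece1, Agtr1a, Agtr2, Agtrap, Ace and Agt. A gene was taken up where a row of the expression table was annotated with exactly 1 gene symbol, which gave 7 of the 10 genes, out of 14860 distinct genes measured this way. Ednra and Agtr2 are not named by such a row and were not analysed here, and the 1 row annotated with Ace also carries a second symbol and was not used. Where a gene had several rows, the one with the highest mean was to be taken, and each of the 7 genes had 1 row. Transcripts were measured in mesenteric artery, the vessel bed that feeds the intestine. The P467L group were 3 male mice with a transgene for human PPAR gamma carrying the dominant negative P467L mutation, and the comparison group were 4 non-transgenic littermates. The smooth muscle myosin heavy chain promoter drove the transgene, so it was aimed at smooth muscle cells, while the RNA came from the whole vessel with its other cells. Each array held the RNA of 1 mouse, not pooled. The sources used here do not give age, strain background or the number of founder lines.

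Vasopressin, endothelin and angiotensin II act on receptors of the G protein-coupled family. In smooth muscle the vasopressin receptor Avpr1a, the endothelin receptor Ednra and the angiotensin receptor Agtr1a couple to Gq, which raises intracellular calcium and drives contraction. The endothelin receptor Ednrb is known for its place on endothelial cells, where it releases nitric oxide and clears endothelin, and some vessels carry it on smooth muscle too. Endothelial cells make the precursor of endothelin from Edn1, and the protease Ece1 cuts it to the active peptide. Agt codes for angiotensinogen, the precursor from which renin and angiotensin converting enzyme release angiotensin II, and Agtrap codes for a protein that binds the angiotensin receptor and promotes its removal from the cell surface. PPAR gamma is a nuclear receptor that binds DNA at direct repeats of the half-site AGGTCA, and the P467L mutant acts against the normal receptor.

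The sequence before the start of Avpr1a and of Ednrb is shown because these genes had the largest differences between genotypes among the 7. Both sequences are from RefSeq on the GRCm38.p6 build, hold the 250 bases before the start of the RefSeq entry and are read 5′ to 3′ along the gene. The Avpr1a window lies at chr10:122448249-122448498 on the plus strand, and the Ednrb window at chr14:103843702-103843951 on the minus strand. Capitals mark every match to a searched motif.
Avpr1a: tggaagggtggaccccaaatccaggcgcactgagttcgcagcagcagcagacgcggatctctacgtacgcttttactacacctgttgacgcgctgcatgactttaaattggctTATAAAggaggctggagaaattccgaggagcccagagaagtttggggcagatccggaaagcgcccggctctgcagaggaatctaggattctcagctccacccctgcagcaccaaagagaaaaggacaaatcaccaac
Ednrb: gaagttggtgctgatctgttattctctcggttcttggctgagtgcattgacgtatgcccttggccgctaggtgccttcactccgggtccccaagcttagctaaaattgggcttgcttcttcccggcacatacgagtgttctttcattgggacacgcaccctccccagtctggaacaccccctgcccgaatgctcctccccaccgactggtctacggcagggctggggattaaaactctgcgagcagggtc
The capitals in Avpr1a are a TATAAA, the core of a TATA box, from base -137 to base -132, where -1 is the base next to the start. The Ednrb window holds none of the searched motifs and so has no capitals.

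The motifs were searched on both strands of the same 250 bases for the 6 of 7 genes that have a RefSeq promoter entry, which gave 9 windows because Ece1 has 4 starts. Windows 1 and 2 of Ece1 overlap, so the 9 are not all separate stretches. The half-site AGGTCA occurred in 0 of the 9 windows, and in 14% of all 32851 RefSeq promoter windows. The PPAR response element, which joins a pair of these half-sites as a direct repeat with 1 base between and so overlaps the first search, occurred in 0 of the 9 and in 0.0335% of all windows. The AP-1 motif TGANTCA and the GATA motif AGATAA each occurred in 0 of the 9, against 6.75% and 9.99% of all windows. The CArG box of serum response factor, known from smooth muscle genes, occurred in 0 of the 9 and in 1.47% of all. TATAAA occurred in 2 of the 9 windows, those of Avpr1a and Agt, and in 12.4% of all windows. In Agt it spans base -30 to base -25, the usual place of a TATA box. These matches describe letters in a short window and not binding sites.

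The 7 arrays gave 23332 rows with 1 log2 value per mouse, and every difference below is the P467L mean minus the non-transgenic mean on that log2 scale. Array medians lay between 6.29 and 6.34. Upper quartiles ran from 7.10 in P467L replicate 3, the lowest, to 7.29 in non-transgenic replicate 1, the highest. Results of the 7 genes of the set that turn on these arrays are given with and without them. Differences of single genes outside the set are given with all arrays only, and some may rest on 1 array. No pair of arrays held identical values. Limma, a linear model fitted to every row with adjustment over all rows, called 0 rows at an adjusted p of 0.05, and 724 rows (3.1%) had an unadjusted p under 0.05. Over all rows the median difference was -0.0025 and the median standard error 0.117. With 3 against 4 mice the exact two-sided permutation test of a single value cannot go below 0.0571. Precision throughout is limited by how few arrays there were.

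Among the receptors, Avpr1a and Ednrb had lower means in P467L artery, but neither passed the test over all rows. Avpr1a, the receptor through which vasopressin contracts arteries, read 6.75, 6.67, 6.47 and 6.43 in non-transgenic replicates 1 to 4 and 6.19, 6.15 and 6.47 in P467L replicates 1 to 3. P467L replicates 1 and 2 lay below every non-transgenic mouse, while P467L replicate 3 equalled non-transgenic replicate 3, so the groups overlapped. The group means were 6.27 ± 0.17 (SD, n = 3) in P467L and 6.58 ± 0.15 (SD, n = 4) in non-transgenic artery. The difference was -0.31 with a standard error of 0.12, a 1.24-fold lower mean (limma, unadjusted p = 0.0372, adjusted p = 1). Its 95% interval ran from -0.59 to -0.025. The exact two-sided permutation test gave p = 0.171. The difference stayed below 0 whichever array was left out, from -0.41 without P467L replicate 3 to -0.25 without P467L replicate 2.

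Ednrb, the endothelin receptor of endothelium and of some smooth muscle, read 7.98, 7.66, 7.53 and 8.10 in the non-transgenic and 7.30, 7.69 and 7.23 in the P467L mice. P467L replicates 1 and 3 were below every non-transgenic mouse, and P467L replicate 2 lay within the non-transgenic range. The means were 7.41 ± 0.25 (SD, n = 3) against 7.82 ± 0.27 (SD, n = 4), a 1.33-fold lower mean in P467L artery. The difference was -0.41 with a standard error of 0.18 and a 95% interval from -0.86 to 0.036 (limma, unadjusted p = 0.0654, adjusted p = 1). The exact two-sided permutation test gave p = 0.171. It too kept its direction with each array left out, from -0.55 without P467L replicate 2 to -0.32 without non-transgenic replicate 4.

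The angiotensin receptor gene Agtr1a differed by less than the spread between mice. It read 5.76, 5.62, 5.67 and 5.67 in the non-transgenic and 5.56, 5.67 and 5.89 in the P467L mice. P467L replicate 1 was the lowest and P467L replicate 3 the highest of the 7 arrays, so the P467L mice spanned the non-transgenic ones. The difference was 0.027 (95% interval -0.18 to 0.23, limma, adjusted p = 1). The sign rested on 1 array, since without P467L replicate 3 the difference was -0.065. Mouse has a close second copy of this receptor, Agtr1b, and probes in shared sequence could bind transcripts of both. Probe sequences were not checked, so how far the rows can be told apart is not known here. The Agtr1b row was the brighter, with a mean above 82.2% of rows against 32.8% for Agtr1a. Agtr1b read 7.35 to 7.74 in the non-transgenic and 7.35 to 7.68 in the P467L mice and differed by -0.055 (limma, adjusted p = 1).

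Agtrap, the protein that binds the angiotensin receptor, read 6.18, 5.87, 5.95 and 5.95 in the non-transgenic and 5.95, 5.95 and 5.87 in the P467L mice. A single value, 5.95, stood on 4 of the 7 arrays, a tie that the probe summary can return, and non-transgenic replicate 1 was above all others. The difference was -0.064 (95% interval -0.26 to 0.13, limma, adjusted p = 1). Without non-transgenic replicate 1 it was 0. The rows of Agtr1a, Agtrap and Agt lay below the median of every array. The Avpr1a row was near the middle, with a mean above 54.7% of rows. In P467L replicates 1 and 2 it read 6.19 and 6.15, below those arrays' medians of 6.33 and 6.31. The means of Ednrb, Edn1 and Ece1 were above 83.1%, 82.6% and 86.4% of rows. How far Avpr1a, Agtr1a, Agtrap and Agt lie above background is not known here.

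The ligand gene Edn1 and its processing enzyme gene Ece1 had nearly equal means in both genotypes, with a wide spread among the P467L mice. Edn1, the endothelin precursor, read 7.89, 7.37, 7.55 and 7.66 in the non-transgenic and 8.06, 7.53 and 7.20 in the P467L mice. The P467L mice held both the highest and the lowest value. The difference was -0.021, against SDs of 0.43 in P467L and 0.22 in non-transgenic artery, and the 95% interval from -0.57 to 0.53 covers folds from 0.672 to 1.45 (limma, adjusted p = 1). Ece1 read 8.11, 7.88, 7.75 and 7.81 in the non-transgenic and 8.08, 8.03 and 7.52 in the P467L mice. P467L replicate 3 was again the lowest array, and the other P467L mice were above all but non-transgenic replicate 1. The difference was -0.011 (95% interval -0.41 to 0.39, limma, adjusted p = 1). Without P467L replicate 3 the difference was 0.18 for Edn1 and 0.17 for Ece1, and neither passed (limma, adjusted p = 0.922 and 0.901).

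Agt, the angiotensinogen precursor, which fat cells also make, read 6.11, 5.68, 5.73 and 5.80 in the non-transgenic and 5.73, 5.53 and 5.73 in the P467L mice. Non-transgenic replicate 1 was the highest array and P467L replicate 2 the lowest, and the other 5 lay between 5.68 and 5.80. The difference was -0.17 (95% interval -0.46 to 0.12, limma, adjusted p = 1). Without non-transgenic replicate 1 it was -0.073 and without P467L replicate 2 it was -0.10. Non-transgenic replicate 1 was also the array with the highest adipocyte markers: Adipoq, the fat hormone gene, read 10.69 there and 8.45 to 9.62 on the others. The next highest Adipoq value, 9.62, was in P467L replicate 2, the array with the lowest Agt. With a score of the adipocyte markers as a covariate the Agt difference was -0.067 (limma, adjusted p = 1). The part of fat cells in the Agt values was not tested.

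**Figure D1:**
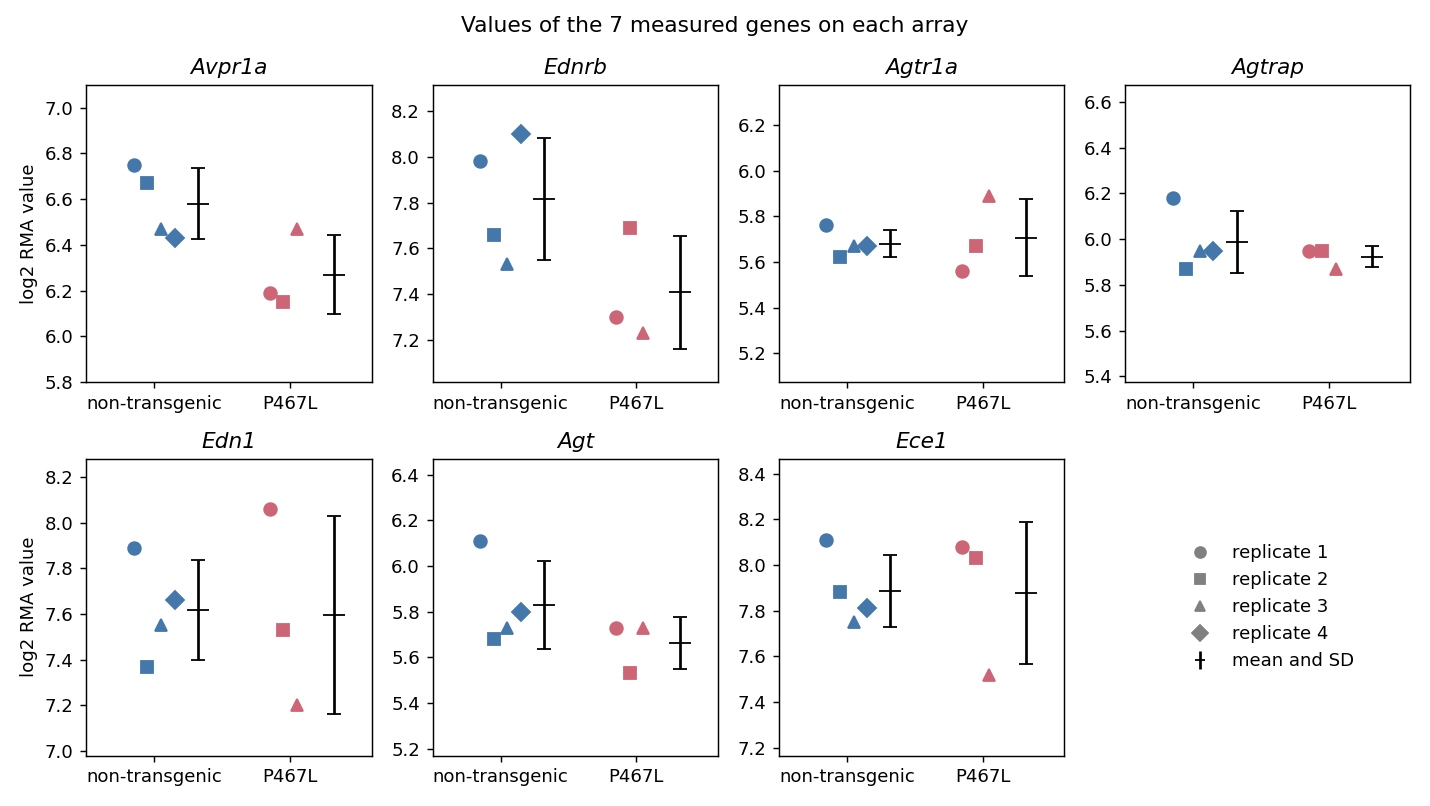
Log2 RMA value of each measured gene on each array, with 4 non-transgenic mice in blue and 3 P467L mice in red, 1 symbol per replicate number, and the group mean with its SD in black. All panels span the same log2 range, and in each of the 7 genes the groups overlap.

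Taking the 7 genes as a set, 6 had lower means in P467L artery and Agtr1a a higher one, and 50.7% of all rows had lower means. Their median difference was -0.064, beside -0.0025 over all rows. At an adjusted p of 0.05, 0 of 7 passed in limma (0% of all rows). At an unadjusted p under 0.05 there was 1 of 7, Avpr1a, against 3.1% of all rows. This did not hold under 7 of 17 alternative settings, while Ednrb came under 0.05 in 4 of 17. For Avpr1a these were the replicate block, either marker score as a covariate, and leaving out non-transgenic replicate 1 or 2 or P467L replicate 1 or 2. Without non-transgenic replicate 1 the Avpr1a difference was -0.25 (limma, unadjusted p = 0.0808). The groups overlapped in all 7 genes, and in all rows 2.57% had groups without overlap. A difference larger than 0.3 in size was seen in 2 of 7, Avpr1a and Ednrb, against 10.6% of all rows.

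**Figure D2:**
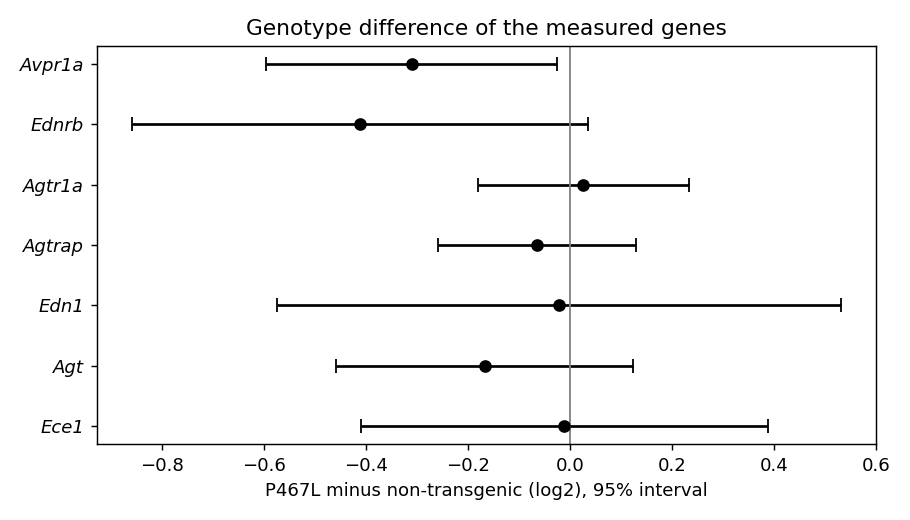
P467L minus non-transgenic difference of each measured gene on the log2 scale, with points for the limma estimate and bars for its 95% interval. The interval of Avpr1a ends at -0.025, and the other 6 intervals include 0.

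**Figure D3:**
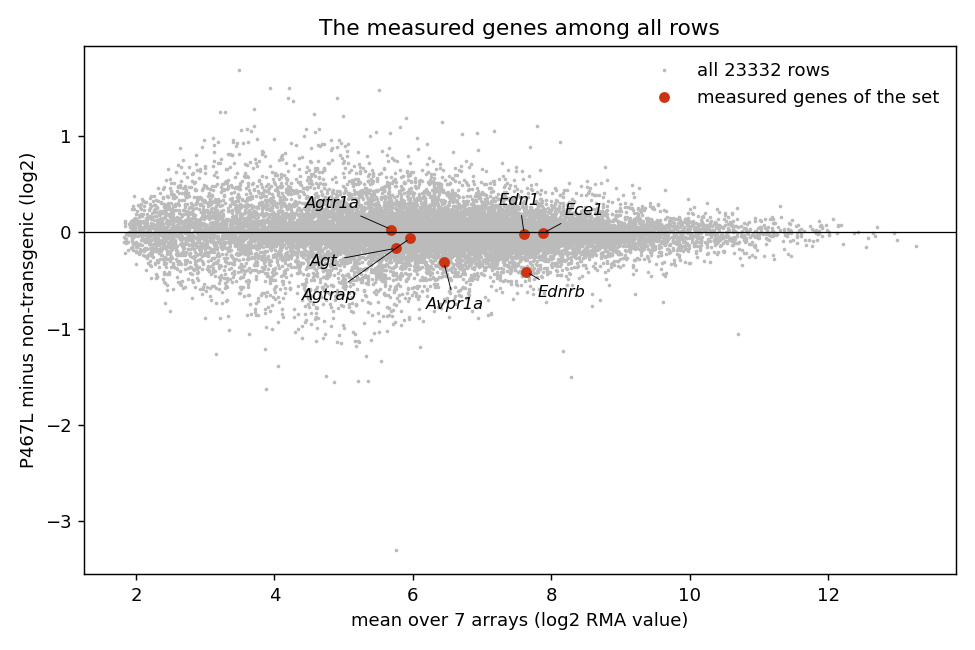
Difference between genotypes (log2) against the mean over the 7 arrays (log2 RMA value) for all 23332 rows in grey and the measured genes in red. Ednrb at -0.41 and Avpr1a at -0.31 lie lowest of the 7, and 10.6% of all rows differ by more than 0.3 in size.

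Single arrays carried much of the variation of these genes. Non-transgenic replicate 1 held the highest value of 4 genes (Avpr1a, Ece1, Agtrap and Agt), and P467L replicate 3 held the lowest value, alone or tied, of 4 genes (Ednrb, Edn1, Ece1 and Agtrap). In contrast, P467L replicate 3 held the highest value of Agtr1a. Non-transgenic replicate 1 and P467L replicate 3 also had the highest and the lowest upper quartile of all rows, 7.29 and 7.10. The part of array scale in these values was not tested. The range over the 7 arrays was widest in Ednrb, at 0.87, and in Edn1, at 0.86, and narrowest in Agtrap, at 0.31. Thus the values of the P467L arrays did not move together. In P467L replicate 3 the ligand and enzyme genes of the endothelin system and their receptor Ednrb were low while Avpr1a was not. In P467L replicate 2 Avpr1a was at its lowest while Ednrb, Edn1 and Ece1 were not.

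Markers of the cells in the vessel were set beside these values as the mean log2 deviation of each list from its own mean over the arrays. Smooth muscle markers were present, with Myh11, the myosin heavy chain of smooth muscle, at 11.32 to 11.57, and in P467L artery the means of all 9 measured ones were lower, by a median of -0.17. Their summed level, given as the log2 of the summed linear values, was 13.78 to 13.90 in non-transgenic and 13.65 to 13.79 in P467L artery. All 7 pericyte markers were measured, of which 6 had lower means and 0 higher, by a median of -0.21. Their summed level was 11.48 to 11.83 against 10.54 to 11.08, without overlap. This sum is made up largely of Rgs5, described further below. Rgs5 means were 11.15 in non-transgenic and 10.10 in P467L artery, beside means of the summed level of 11.62 and 10.85. In whole vessel RNA, fewer cells of a type and less RNA per cell cannot be told apart. With a smooth muscle marker score as a covariate the Avpr1a difference was -0.37 and that of Ednrb -0.58, with standard errors of 0.22 and 0.33 (limma, adjusted p = 1 for both). The mean deviation of the smooth muscle markers was -0.014 to 0.19 in non-transgenic and -0.20 to -0.054 in P467L artery, without overlap. The covariate averages the same markers after scaling each to its SD, so it is not the same measure. With it the standard error rose from 0.12 to 0.22 for Avpr1a and from 0.18 to 0.33 for Ednrb. The fit cannot separate genotype from a score that follows it in this way. With the adipocyte score as the covariate the differences were smaller, -0.25 for Avpr1a and -0.31 for Ednrb, with standard errors of 0.12 and 0.18 (limma, adjusted p = 1 for both). The part of the pericyte markers in these differences was not tested.

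Endothelial markers were also compared with Edn1 and Ece1 array by array. Of 11 measured endothelial markers 7 had higher and 4 lower means, with a median of 0.010, and their summed level was 11.58 to 11.96 in non-transgenic and 11.55 to 11.93 in P467L artery. Pecam1, the adhesion protein of endothelium, read 10.39 to 10.83. The endothelial deviation was 0.20 in non-transgenic replicate 1 and 0.12 in P467L replicate 1, the arrays with the highest Edn1 and Ece1, and -0.15 in P467L replicate 3, the array with the lowest. In non-transgenic replicate 4 it was lowest, at -0.18, while Edn1 was the third highest of the arrays, at 7.66, Ece1 read 7.81 and Ednrb was at its highest. In P467L replicate 2 the endothelial deviation was 0.090, while Edn1 read 7.53 and Ece1 8.03. The part of the endothelial markers in the values of these genes was not tested.

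Markers of other cells had a value on every array, but how far the dimmest lie above background is not known. The lowest single values were 3.80 for lymphoid, 4.74 for adipocyte and 4.95 for mesothelial markers. Adipocyte markers had lower means in 10 of 11, with a summed level of 10.57 to 12.01 in non-transgenic and 10.57 to 11.12 in P467L artery. Fibroblast markers had higher means in 8 of 10, with Dcn, the proteoglycan decorin, at 10.94 to 11.56 and a summed level of 12.48 to 12.79 against 12.71 to 12.95. Macrophage markers had higher means in 11 of 11, with Adgre1, a macrophage surface receptor gene, at 5.60 to 5.96 and a summed level of 10.13 to 10.49 against 10.17 to 10.75. Nerve and Schwann cell markers had higher means in 4 of 5, with a summed level of 8.63 to 8.78 against 8.73 to 8.87. Lymphoid markers had higher means in 3 of 5 and mesothelial markers in 3 of 5, with summed levels of 8.01 to 8.31 against 7.83 to 8.31 and of 8.21 to 8.35 against 8.19 to 8.45. No marker was at 0 on any array, and log2 array values have no true zero.

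**Figure D4:**
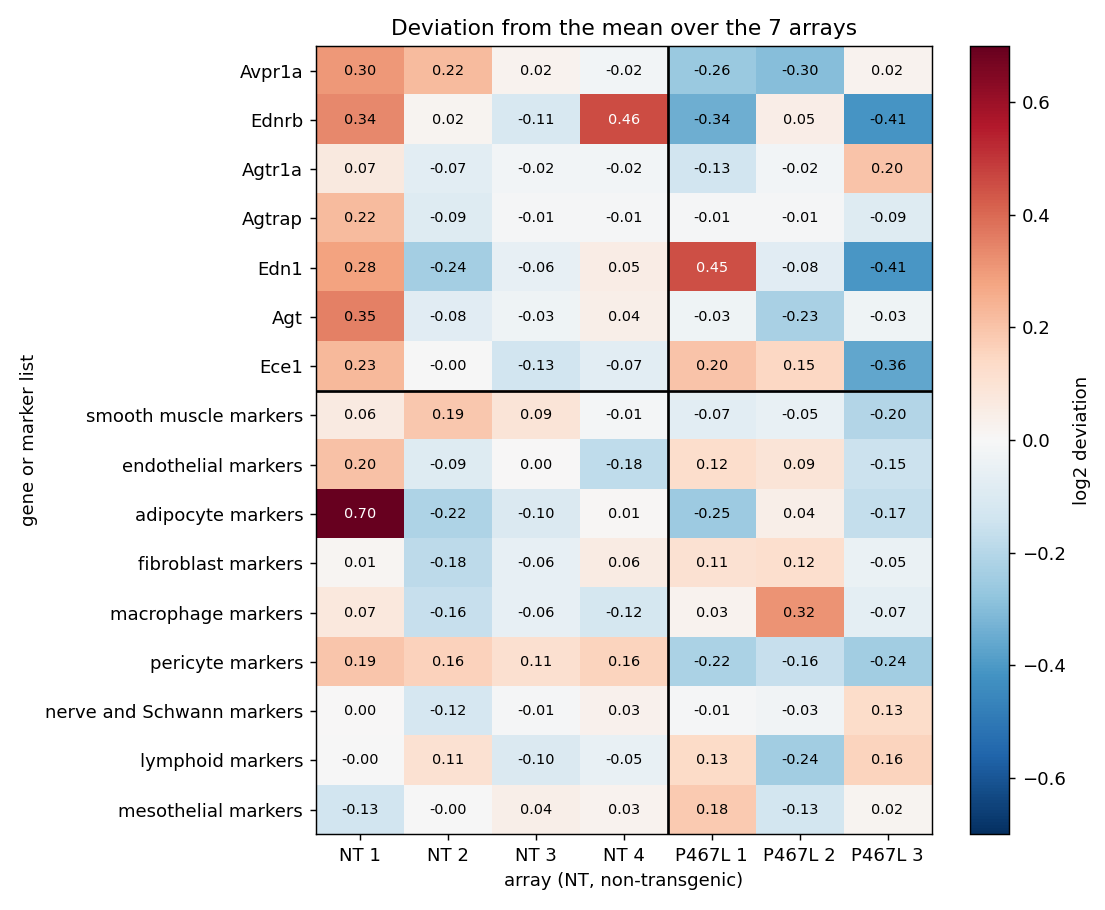
Log2 deviation of each measured gene (above the line) and of each cell type marker list (below it) from its mean over the 7 arrays, 1 column per array, with NT for non-transgenic. Adipocyte markers reach 0.70 in NT replicate 1, and the pericyte row changes sign between the genotypes.

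Other genes of the same hormone systems showed no call either. Of 22 listed, 17 were measured, and in P467L artery the means of 6 were lower and of 11 higher, the median difference being 0.042 and a range from -0.25 to 0.29. At an adjusted p of 0.05, 0 of 17 passed in limma, and 0 of 17 had an unadjusted p under 0.05 against 3.1% of all rows. The vasopressin gene Avp read 5.44 to 5.94 in the non-transgenic and 5.63 to 6.01 in the P467L mice and differed by 0.15. Avpr2, the vasopressin receptor of the kidney, differed by 0.095 and stood at 6.82 on 4 of 7 arrays. The oxytocin gene Oxt and its receptor Oxtr, close relatives of the vasopressin pair, differed by 0.11 and 0.087. The other endothelin genes Edn2 and Edn3 differed by 0.16 and -0.067, and Ece2, a relative of Ece1, by 0.0067 in its brighter row and -0.027 in its dimmer row. Enpep, an aminopeptidase that breaks down angiotensin II, had the most positive difference of the list, 0.29 with a 95% interval from -0.25 to 0.82. It read 6.61 in non-transgenic replicate 1, 5.76 to 5.95 in the other non-transgenic mice and 6.16 to 6.46 in the P467L mice. Mas1, a receptor for the shorter angiotensin peptide, differed by 0.14, and Cma1, a mast cell protease, by 0.042. Avpr1b, Lnpep, Ren1 and Nr3c2 are among the genes that no row with 1 symbol names and that were not analysed here.

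The machinery that carries the receptors' signal to the contractile proteins was compared next. Of 32 listed symbols 25 were measured, of which 17 had lower, 6 higher and 2 equal means, with a median of -0.059 and 0 past an adjusted p of 0.05 in limma. At an unadjusted p under 0.05 there were 2 of 25, Rgs5 and Plcb4, against 3.1% of all rows, and the groups did not overlap in 4 of 25, against 2.57% of all rows. The Gq subunit Gnaq differed by 0.27 and its sister Gna11 by -0.080, each less than the larger of their SDs. Plcb4, a phospholipase that Gq activates to release calcium, read 8.62, 8.26, 8.41 and 8.23 in the non-transgenic and 7.99, 8.20 and 7.82 in the P467L mice. All P467L mice were below all non-transgenic mice, the nearest by 8.20 against 8.23. The difference was -0.38 (95% interval -0.70 to -0.058, limma, adjusted p = 1). Ppp1r14a, an inhibitor of myosin phosphatase that sustains contraction, read 9.37 to 9.65 in the P467L and 9.68 to 9.97 in the non-transgenic mice and differed by -0.23.

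The largest differences of this list were those of Rgs5 and Rgs4. Both speed the shutdown of Gq and Gi proteins, and Rgs5 is also a pericyte marker. The brighter Rgs5 row read 11.44, 10.94, 11.09 and 11.14 in the non-transgenic and 10.28, 10.48 and 9.53 in the P467L mice. Every P467L mouse was below every non-transgenic one, and the difference was -1.06 (limma, adjusted p = 1). Rgs4 differed by -0.49, also without overlap, with P467L replicate 3 at 8.04 and the other P467L mice at 8.72 and 8.78. Other listed genes that damp these receptors, named after their values were seen, differed by less: Rgs2 by 0.11, the receptor kinase gene Grk5 by -0.086, and the arrestin genes Arrb1 and Arrb2 by -0.034 and -0.013. These lists were drawn up with earlier results of the data known, so their counts describe the genes and support no claim about the pathway.

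**Figure D5:**
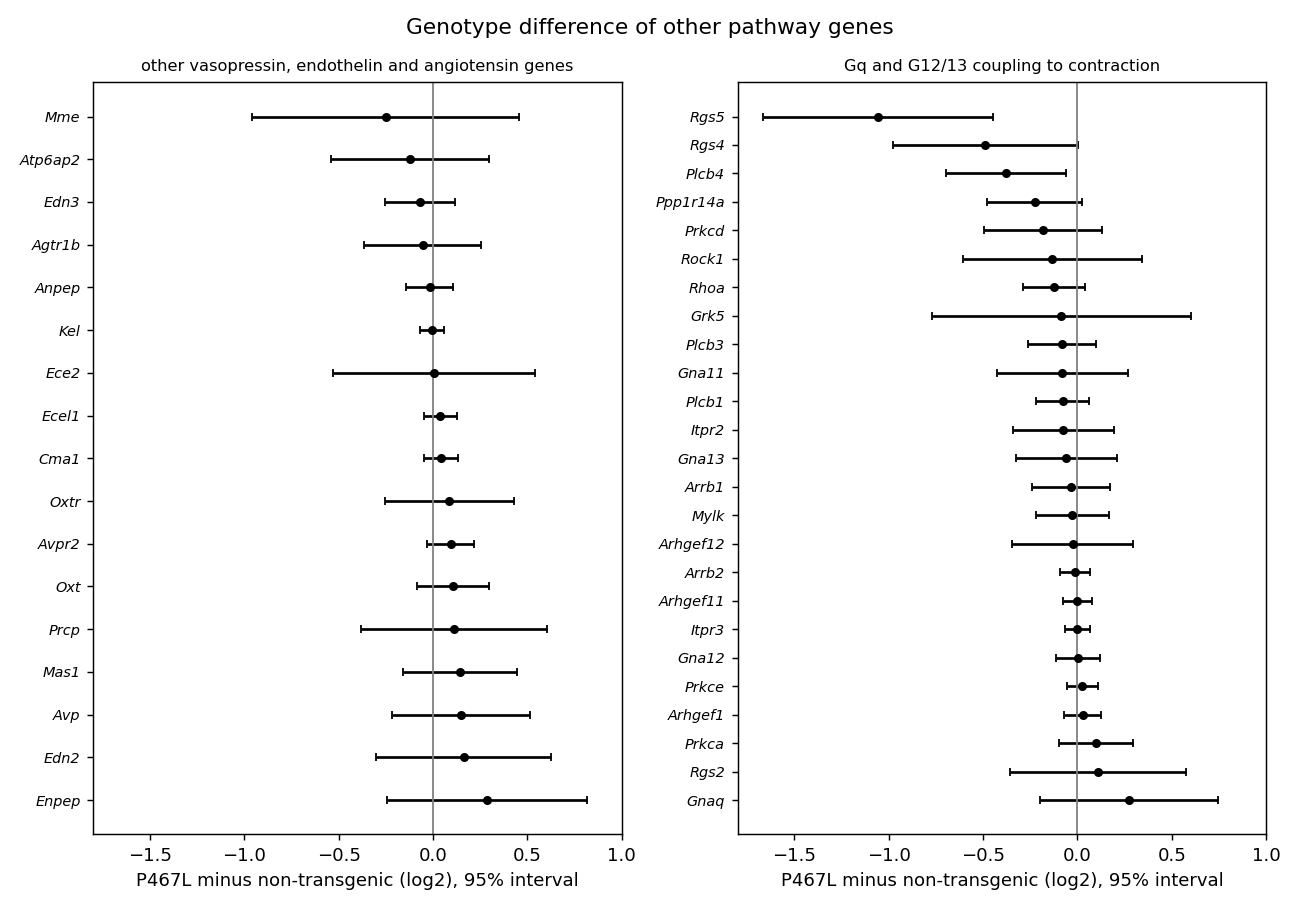
P467L minus non-transgenic difference (log2) with its 95% interval from limma, for the 17 other genes of the hormone systems on the left and the 25 genes of G protein coupling to contraction on the right. The intervals of Rgs5 and Plcb4 lie below 0, and all others include it.

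Finally, the genes whose pattern over the 7 arrays was most like that of each receptor were found among the other 14995 rows with 1 symbol. Likeness was the root-mean-square difference between the deviations of both genes from their own means, on the log2 scale, where a smaller value is more alike. For Avpr1a the nearest genes were Akap12 at 0.092, Slc26a2 at 0.092 and Ccdc107 at 0.092, beside 0.21 for a row that does not vary at all. Akap12, an anchor for protein kinases, read 6.91, 6.97, 6.84 and 6.67 in the non-transgenic and 6.61, 6.52 and 6.66 in the P467L mice. For Ednrb they were Gpx4, an enzyme that detoxifies lipid peroxides, at 0.097, Chchd4 at 0.12 and Slit2 at 0.14, beside 0.30 for a row without variation. For Agtr1a they were Fkbp8 at 0.028, Ddb2 at 0.031 and Zc3h6 at 0.032, beside 0.098. With 7 arrays and this many rows some close match is to be found for nearly any pattern, and the names describe these arrays and nothing further.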

How the data were processed

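The authors deposited 1 log2 value per row and array, which per the submitters' processing notes came from RMA in Affymetrix Power Tools with the mm9 build, from RNA of single mice amplified and labelled with biotin per the labels' protocols. The array was the Affymetrix mouse exon 1.0 ST. Versions, background settings and the probe set level were not given in the sources used here. RMA commonly corrects background, equalises the arrays' distributions and summarises probes by median polish, which shrinks differences of dim rows and can return ties: the same value stood on 4 or more arrays in 4671 rows. The values have 2 decimals, and detection calls were not used here. Rows were named through the platform annotation: 14996 of 23332 had 1 gene symbol, 1019 several and 7317 none. The RefSeq table of GRCm38 held the Entrez identifiers of 14941 rows and updated 0 symbols. Columns of per-sample values beyond the 7 arrays numbered 0.

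Limma 3.58.1 (lmFit, eBayes; R 4.3.3) was fitted to all rows without filter or covariate, with p-values adjusted by Benjamini-Hochberg across the whole table, a threshold of 0.05 and 95% intervals from the moderated fit, which had 1.01 prior degrees of freedom. Genes of the set were also tested by exact permutation (two-sided, all 35 splits, scipy 1.17.1). Marker scores entered as covariates average the markers after scaling each to its SD. The genes and lists were chosen with earlier results of these data known. Named genes are the measured genes of the set, the 5 of smallest p of each pathway list with further genes fixed by name, the nearest 3 genes in pattern and the defining markers. The result of 1 gene that this rule names is not reported here. Mme, Atp6ap2 and the remaining listed genes appear in the plot of pathway genes. Alternatives were another quantile normalization, centring on medians, dropping the dimmest 25% or 50% of rows, a trended robust variance, weights per array, blocking on the replicate number, 2 marker scores as covariates, each array left out and, added after seeing the data, leaving out tied rows.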

Additional observations from a re-analysis of the deposited data

Results flagged for a closer look

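In groups of 4 mice, 1 array can stand apart from the rest by more than the 95% limit of Dixon's test, which compares its gap to the nearest mouse with the range of the group. Of 48 such comparisons in the non-transgenic group, over the named genes and the summed levels of the marker lists, 6 passed. For independent normal values chance gives about 1 in 20. The values here are rounded and partly tied, and some genes were picked by their pattern on these arrays. The count of 6 therefore cannot be read as an excess over that rate. None of the 7 measured genes of the set was among them. The oxytocin receptor gene Oxtr read 6.03 in non-transgenic replicate 3 and 6.42 to 6.45 in the other non-transgenic mice. Ppp1r14a, the inhibitor of myosin phosphatase, read 9.97 in non-transgenic replicate 2 and 9.68 to 9.71 in the others. Avpr2 read 6.76 in non-transgenic replicate 2 and 6.82 in the others, and Cma1 read 5.63 in non-transgenic replicate 3 and 5.69 in the others. Among the genes nearest in pattern to a receptor, Ccdc107 read 8.56 in non-transgenic replicate 1 and 8.26 to 8.30 in the others, and Ddb2 read 7.12 in non-transgenic replicate 2 and 7.23 to 7.25 in the others. In Avpr2 and Cma1 the other mice are tied, so any departure passes the limit.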

How the results depend on the processing

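Limma called 0 rows in either direction under all 17 alternatives. Avpr1a kept its direction in 17 of 17, from -0.41 to -0.25 (smallest adjusted p 0.322), Ednrb in 17 of 17, from -0.58 to -0.31 (0.368), and Agt in 16 of 16, from -0.33 to -0.067 (0.823). The unadjusted p of Avpr1a was under 0.05 in 10 of 17 alternatives and not in the other 7, and that of Ednrb in 4 of 17. Edn1 turned positive with array weights (0.34), the adipocyte score (0.060) or the smooth muscle score (0.094) as a covariate, and with 1 array left out ran from -0.25 to 0.18, with 0.070 when non-transgenic replicate 1 was left out and 0.012 for P467L replicate 2. Ece1 turned positive after another quantile normalization (0.0042), with array weights (0.18) and with the adipocyte (0.068) or smooth muscle score (0.28), and ran from -0.11 to 0.17 with 1 array left out, with 0.063 without non-transgenic replicate 1. Agtr1a turned negative with array weights (-0.076) and the smooth muscle score (-0.16), and ran from -0.065 to 0.10 with 1 array left out. Agtrap was 0.0080 with the adipocyte score. The cause of these changes was not tested. Array weights favoured P467L replicate 1, at 3.54 against 0.46 and 0.33 for P467L replicates 2 and 3. With 1 array left out the median of the 7 genes ran from -0.20 (P467L replicate 1) to 0 (non-transgenic replicate 1), it turned to 0.0080 with the adipocyte score, and that of the contraction coupling genes was 0.051 with the smooth muscle score. Dropping the dimmest 50% of rows removed Agtr1a, Agtrap and Agt, and dropping tied rows removed Agtrap, so they have no value there. No gene of the set had a second row to try. Replicate numbers are shared by the groups, and the labels state no pairing. Deviations of same-numbered arrays correlated at 0.12, -0.20 and -0.090. Those of differently numbered arrays ran from -0.33 to 0.28, so this check cannot tell whether same-numbered arrays are pairs. With the replicate number as a block Avpr1a differed by -0.36 and Ednrb by -0.32, and the number of called rows was 0. Detection limits were not available, so how far dim rows lie above background is unknown.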
